A study of Mus musculus with 12 samples.

Results

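Hox cluster genes were followed in mouse hair follicle stem cells with and without the forkhead transcription factor Foxc1, in the growth phase (anagen) and the early resting phase (early telogen) of the hair cycle. The genes were taken by name: every entry of both count tables that starts with Hoxa, Hoxb, Hoxc or Hoxd and a digit, leaving out antisense (as, os) and Rik names. This gave 38 of the 37931 gene names that the tables share. Of these, 11 belonged to the Hoxa cluster on chromosome 6, 10 to Hoxb on chromosome 11, 9 to Hoxc on chromosome 15 and 8 to Hoxd on chromosome 2. No measured value entered the choice. Hoxd4 was not analysed here.

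The cells came from back skin and were sorted as H2BGFP+, Sca-1-, CD34+ and CD49f+, a gate for stem cells of the follicle bulge. All mice carried K14-H2BGFP, a green fluorescent histone under the keratin 14 promoter, and floxed Foxc1 alleles (Foxc1 fl/fl). Knockout (KO) mice also carried K14Cre, a Cre recombinase under that promoter, which is active in basal keratinocytes of the epidermis and follicle, so the deletion was not limited to the sorted cells. Controls without Cre are called WT here although their Foxc1 alleles were floxed. The 12 libraries were 3 WT and 2 KO in anagen (titled day 29, 30 or 31 after birth) and 3 WT and 4 KO in early telogen (titled day 47, except KO replicate 5, titled day 43 with an age label of 47). WT anagen replicate 3 was titled day 31 with an age label of 43 days, and both were assigned to the stage of their count table. Both anagen KO libraries were labelled female, against 1 female and 2 male WT libraries. In early telogen, KO replicate 2 and WT replicate 4 were labelled male and all other libraries female. Nothing in the labels ties each replicate to its own mouse, so p-values measure only the spread between these samples, which may be technical.

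Hox genes encode homeodomain transcription factors and lie in 4 clusters, where the position of a gene follows its paralog number, from anterior (low) to posterior (high). They specify position along the body axis in the embryo, and adult skin keeps region-specific combinations of them. Hoxc13 is the posterior member best known in hair, where it controls keratin genes of the hair shaft and, in mouse, is needed for normal hair, nails and tongue papillae. HOX proteins bind DNA together with PBX and MEIS cofactors, and retinoic acid and trithorax proteins help to set and keep their transcription.

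Anagen libraries held 29025553 to 54482469 counts over genes and early telogen libraries 2662083 to 11821916, so low values were read more coarsely in telogen. A count of 3 was worth 0.0551 to 0.103 counts per 1000000 (CPM) in anagen and 0.254 to 1.13 CPM in early telogen, which covers counting error only. Stage, count table and depth moved together and cannot be told apart. Foxc1 stood at 34.6, 116 and 47.2 CPM in WT anagen, 0.206 and 0.276 CPM in KO anagen, 43.8, 59.1 and 61.2 CPM in WT early telogen, and 2.28, 3.11, 0.910 and 1.13 CPM in KO early telogen, so all KO libraries were under all WT libraries of their stage. Summed bulge stem cell markers (Cd34, Krt15, Lhx2, Sox9, Tcf7l1, Nfatc1, Itga6, Krt5, Krt14) lay between 21743 and 35900 CPM in the 12 libraries. Within that list, Cd34, a gene of the gate, was at 230.3 to 277 CPM in KO and 352 to 757 CPM in WT in anagen. In early telogen it was at 349 to 417 CPM in KO and 647 to 845 CPM in WT and fell by 1.2 in log2 units (edgeR adjusted p = 0.0212). Krt15 and Nfatc1 had KO log2 fold changes of -2.12 and -1.37 in anagen, which did not pass (edgeR adjusted p = 0.156 and 0.195). Of the 9 markers, 6 had a negative and 3 a positive log2 fold change in anagen, among the latter Sox9 at 0.23. In early telogen all 9 were negative. The part of these markers in the Hox values was not tested. Summed fibroblast markers lay between 553 and 2193 CPM in 11 libraries and at 5936 CPM in KO early telogen replicate 2. WT early telogen replicate 3 held the lowest fibroblast and endothelial sums, 553 and 3.89 CPM.

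Of the called genes, Hoxa5, Hoxa6 and Hoxa7 are neighbours on the minus strand of chromosome 6, with gene models 1700 and 5768 bases apart. They are shown because they lie side by side and behaved differently between the stages below. The 250 bases before the RefSeq start of each gene (build GRCm38.p6, minus strand, 5′ to 3′, CG dinucleotides in capitals) read as follows.
Hoxa5 (chr6:52204588-52204837): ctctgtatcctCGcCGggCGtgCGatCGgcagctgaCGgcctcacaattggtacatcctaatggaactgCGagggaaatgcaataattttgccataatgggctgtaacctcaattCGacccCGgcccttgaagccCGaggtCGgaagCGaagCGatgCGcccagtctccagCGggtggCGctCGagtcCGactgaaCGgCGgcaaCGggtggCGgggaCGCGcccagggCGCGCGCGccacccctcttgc
Hoxa6 (chr6:52208673-52208922): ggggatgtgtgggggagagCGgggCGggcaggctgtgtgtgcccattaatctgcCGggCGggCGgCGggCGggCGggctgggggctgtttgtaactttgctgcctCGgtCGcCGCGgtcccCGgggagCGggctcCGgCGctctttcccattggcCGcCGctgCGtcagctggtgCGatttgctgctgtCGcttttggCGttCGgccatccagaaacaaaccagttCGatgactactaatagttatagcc
Hoxa7 (chr6:52218574-52218823): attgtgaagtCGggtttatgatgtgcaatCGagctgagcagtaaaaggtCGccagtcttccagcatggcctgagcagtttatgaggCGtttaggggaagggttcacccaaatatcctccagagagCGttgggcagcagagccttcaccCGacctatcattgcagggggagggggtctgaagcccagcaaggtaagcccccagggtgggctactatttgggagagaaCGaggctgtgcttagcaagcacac
The Hoxa5 and Hoxa6 windows held 28 and 24 CG dinucleotides at a GC content of 63.6% and 65.2%, and the Hoxa7 window held 7 at 54.8%. The positions are not alike: the Hoxa5 window lies just before the GENCODE model used for coordinates below, the Hoxa6 window overlaps the start of its model, and the Hoxa7 window lies wholly inside a longer model. RefSeq windows of 300 bases (250 before and 50 after a start) were matched for 21 members, some with more than 1 start, giving 23 windows. Their median GC content was 58%, against 52.7% over all 32851 windows. The forkhead motif GTAAACA, searched on both strands, was in 0 of the 23 windows and in 3.65% of all windows. The related GTAAATA was in 2 of the 23, those of Hoxa2 and Hoxd1, and in 3.04% of all windows, and the windows of Hoxa5, Hoxa6 and Hoxa7 held neither.

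Hox transcripts were a small part of the RNA, and a few genes made up most of it. The summed level of the 38 genes was 360.2 ± 43.3 CPM in WT anagen (SD, n = 3), 408 ± 80.5 CPM in KO anagen (n = 2), 349 ± 33.7 CPM in WT early telogen (n = 3) and 400.4 ± 57.8 CPM in KO early telogen (n = 4), and these ranges overlapped. Hoxc was the highest cluster in every group, with summed levels of 176, 241, 158 and 196 CPM in the same order. Hoxb followed at 99.97, 104, 109 and 125 CPM, Hoxa at 72.6, 54.9, 64.2 and 62.9 CPM, and Hoxd was lowest at 12, 7.79, 18.2 and 17.1 CPM. Hoxc13 and Hoxc8 together held 28.3% to 54.9% of the Hox counts of a library. In bulk RNA, fewer cells of a type and less RNA per cell cannot be told apart.

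**Figure D1:**
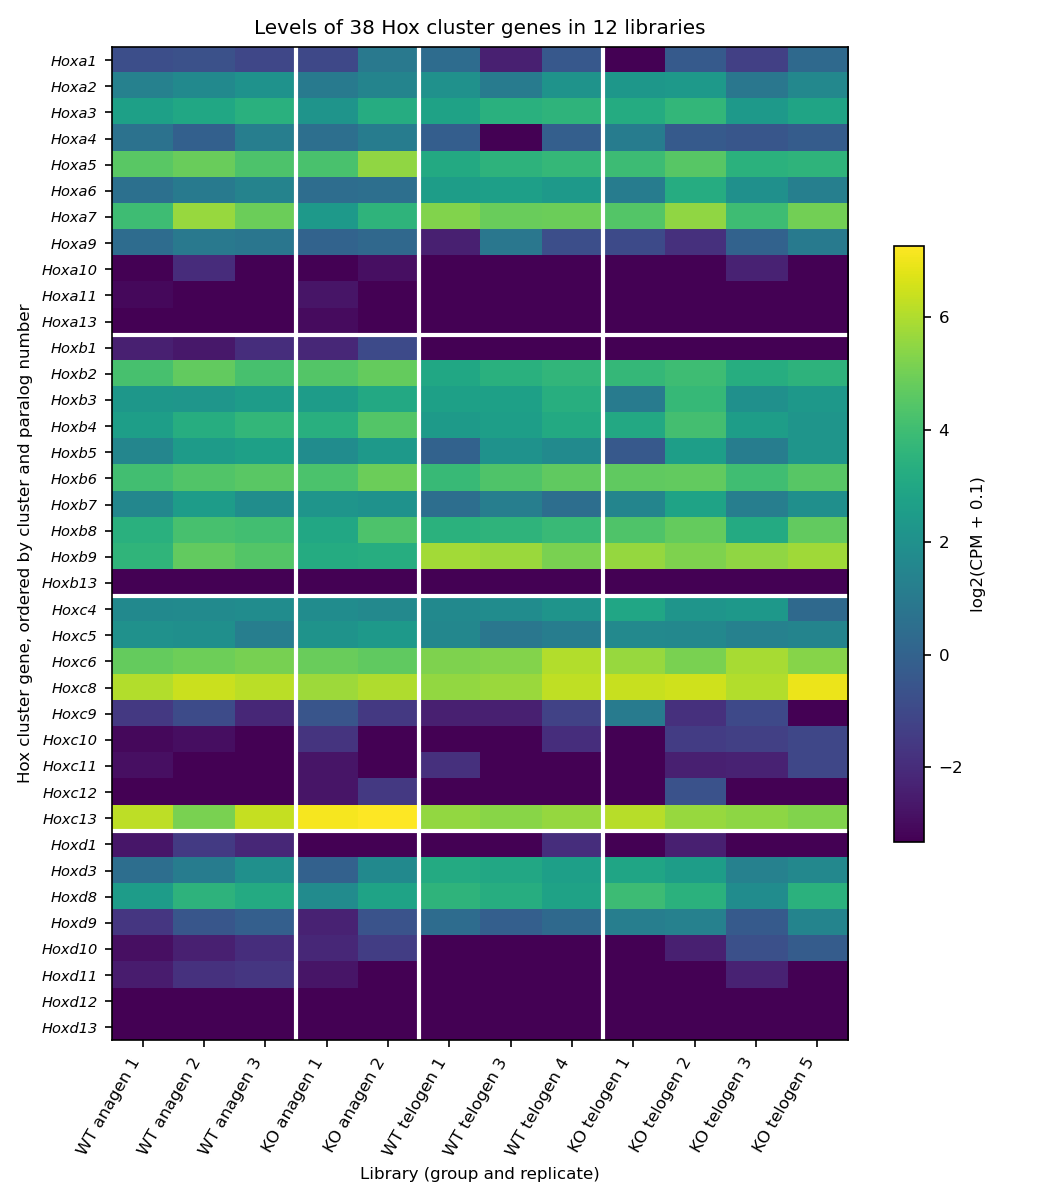
Level of each of the 38 Hox cluster genes (rows, by cluster and paralog number) in each of the 12 libraries (columns, by group), as log2(CPM + 0.1). Genes with paralog numbers 10 to 13 are dark except Hoxc13, which is brightest in the 2 KO anagen libraries at 139 and 154 CPM.

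The genes of paralog groups 10 to 13 were near 0 except Hoxc13. Paralog groups 10 to 13 without Hoxc13 summed to 0 to 1.5 CPM in a library. Hoxb13, Hoxd12 and Hoxd13 had 0 counts in all 12 libraries, where a count of 3 marks the limit given above. In all, 13 members stayed under 1 CPM in every library: Hoxa10, Hoxa11, Hoxa13, Hoxb1, Hoxb13, Hoxc10, Hoxc11, Hoxc12, Hoxd1, Hoxd10, Hoxd11, Hoxd12 and Hoxd13. Hoxc9, which starts 47624 bases beyond the end of Hoxc13 with Hoxc12, Hoxc11 and Hoxc10 between them, was at 0 to 0.592 CPM in 11 libraries and at 2.03 CPM in KO early telogen replicate 1.

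Per kilobase of exon, Hoxc8 and Hoxc13 stood at the top. In WT anagen, Hoxc8 was at 26.3 ± 3.37 and Hoxc13 at 25.8 ± 10 CPM per kilobase, closer to each other than their SDs. Hoxa5 (12.8 ± 2.32), Hoxc6 (12.7 ± 1.37), Hoxa7 (10.9 ± 5.85), Hoxb6 (10.3 ± 1.84) and Hoxb9 (7.76 ± 2.84 CPM per kilobase) followed. Hoxa5 and Hoxc6 were closer than their SDs, and so were Hoxa7 and Hoxb6, whereas Hoxc6 exceeded Hoxa7 and Hoxb6 exceeded Hoxb9 by more than the smaller SD of the pair but less than the larger. In KO anagen the order opened with Hoxc13 at 59.7 ± 4.30, then Hoxc8 at 20.7 ± 2.61 CPM per kilobase, whose libraries did not overlap. In WT early telogen, Hoxc8 (20.5 ± 5.43), Hoxc6 (19.9 ± 6.75), Hoxc13 (18.5 ± 1.2) and Hoxb9 (18.5 ± 4.39 CPM per kilobase) differed by less than the larger SD of each pair. Hoxc8 and Hoxc6 exceeded Hoxc13 by more than the SD of Hoxc13. In KO early telogen, Hoxc8 led at 32.1 ± 8.58, followed by Hoxc13 at 20.5 ± 5.49, Hoxc6 at 19.1 ± 4.27 and Hoxb9 at 18.1 ± 2.73 CPM per kilobase.

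Between anagen and early telogen, WT cells gained transcripts of Hoxa6, Hoxb9, Hoxc6 and Hoxd3 and lost those of Hoxa5 and Hoxb2. These 6 of 24 members tested passed at an adjusted p under 0.05 in edgeR's quasi-likelihood test with Benjamini-Hochberg adjustment over 12718 genes, 4 higher and 2 lower in telogen. Over all genes tested, 29.5% passed, 13.6% higher and 15.9% lower, so the members' share was near that of genes in general. In KO cells, 5 of 24 members passed, against 22.2% of all genes (10.2% higher and 12% lower): Hoxa7 and Hoxb9 rose and Hoxa5, Hoxb2 and Hoxc13 fell. The median log2 fold change of the members was 0.09 in WT and 0.08 in KO, against -0.10 and -0.03 over all genes. Without WT early telogen replicate 3, which stood low on fibroblast and endothelial markers, 2 members passed as higher and 1 as lower in WT. Without KO early telogen replicate 2 all 5 KO calls held.

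Melanocyte markers moved with the stage too. In WT, 3 of 5 tested fell from anagen to early telogen and 1 rose (15.9% and 13.6% of all genes). The pigment enzyme gene Dct went from 11.3 to 64.8 CPM in the anagen libraries to 1.30 to 2.32 CPM in telogen (log2 fold change -4.17, edgeR adjusted p = 0.00837), and Tyrp1 fell by 3.29 (edgeR adjusted p = 0.0461). Tyr, the third, entered the WT test only through its anagen level, so its call adds no support. It went from 3.29 to 6.35 CPM in anagen to 0 to 0.0893 CPM in telogen. Mitf, the regulator of pigment genes, rose by 2.06 (edgeR adjusted p = 0.0337), and Mlana was at 0 in all 3 WT early telogen libraries. In KO, where 22.2% of all genes passed, 1 of 6 did, Mitf, at 4.42 (edgeR adjusted p = 1.69e-05). The 6 melanocyte markers summed to 58.6 to 140.4 CPM in WT anagen and 26.5 to 31.3 CPM in KO anagen. In early telogen they summed to 81.7 to 136 CPM in WT and 72.4 to 107 CPM in KO. Mitf made up most of the early telogen sums, with means of 109 CPM in WT and 64.7 CPM in KO. Its anagen means were 28.2 CPM in WT and 3.01 CPM in KO. Of the fibroblast markers, 2 of 12 tested rose by stage in WT and 1 of 11 in KO, near the shares of all genes (13.6% and 10.2%). The part of these cells in the Hox values was not tested.

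Hoxb9, a gene of paralog group 9 with a role in the thoracic skeleton and mammary gland of the mouse (chromosome 11, 96271457 to 96276595, plus strand, build GRCm38), rose in both genotypes. It was at 12, 26.4 and 21.5 CPM in WT anagen and at 56.4, 51.7 and 34.9 CPM in WT early telogen. In KO it was at 9.16 and 9.72 CPM in anagen and at 48.3, 37.5, 45.7 and 54.5 CPM in early telogen. Every telogen library lay above every anagen library of its genotype. The difference on the log2 scale was 1.35 ± 0.31 (SE) in WT and 2.31 ± 0.29 in KO (edgeR adjusted p = 0.0128 and 0.000423). The WT call was lost without WT early telogen replicate 3 (edgeR adjusted p = 0.050), and the KO call held whichever of the 6 libraries was left out. The lincRNA gene Gm53, which lies upstream on the same strand and ends 6588 bases before Hoxb9, rose as well, from 7.45 to 34.1 CPM in WT and from 3.53 to 29.8 CPM in KO. Its log2 fold change was 2.28 ± 0.29 in WT and 3.08 ± 0.39 in KO, with edgeR adjusted p values of 0.00136 and 0.000455.

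Hoxa5 and Hoxa6 moved in opposite directions in WT. Hoxa5, which in mouse acts in lung and cervical patterning (chromosome 6, 52201754 to 52204587, minus strand), was at 23.5, 28.7 and 20.1 CPM in WT anagen and at 8.66, 11.6 and 13.2 CPM in WT early telogen. In KO it was at 18.8 and 45.5 CPM in anagen and at 15.4, 23.0, 10.7 and 11.6 CPM in early telogen. The WT groups did not overlap, whereas in KO the highest telogen library passed the lower anagen one. The log2 fold change of Hoxa5 was -1.02 ± 0.25 in WT and -1.10 ± 0.36 in KO (edgeR adjusted p = 0.0142 and 0.0477). The WT call held whichever library was left out. The KO call was lost in 4 of 6 such fits, and without KO anagen replicate 2 the log2 fold change was -0.37 (edgeR adjusted p = 0.659).

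Hoxa6 (chromosome 6, 52206288 to 52208722, minus strand) had low CPM, on a short exon length of 874 bases. It was at 1.39, 1.94 and 2.59 CPM in WT anagen and 5.89, 6.21 and 5.22 CPM in WT early telogen. In KO it was at 1.26 and 1.34 CPM in anagen and 2.11, 9.33, 3.84 and 2.25 CPM in early telogen. The stages did not overlap in either genotype. The log2 fold change was 1.65 ± 0.40 in WT, with an edgeR adjusted p of 0.0138 that stayed under 0.05 whichever library was left out, and 1.73 ± 0.67 in KO, which did not pass (edgeR adjusted p = 0.0869). Hoxa7, a regulator of axial identity (chromosome 6, 52214491 to 52221854, minus strand), was at 15.8, 49.2 and 29.3 CPM in WT anagen and at 38.4, 28.6 and 29.4 CPM in WT early telogen. In KO it was at 5.07 and 11.6 CPM in anagen and at 21.7, 45.1, 15.8 and 32.3 CPM in early telogen. The WT stages overlapped and the KO stages did not. Hoxa7 rose in KO by 1.74 ± 0.44 in log2 units (edgeR adjusted p = 0.0191), a call lost without KO anagen replicate 1 (edgeR adjusted p = 0.105) or KO early telogen replicate 5 (edgeR adjusted p = 0.0546), and its log2 fold change in WT was 0.11 ± 0.38. Of its exon bases, 586 lie opposite the antisense gene Hoxaas3, and the strand option used in counting was not given in the sources used here.

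Hoxc13 (chromosome 15, 102921103 to 102928814, plus strand) fell from anagen to early telogen in KO. It was at 139 and 154 CPM in KO anagen and at 69.3, 50.1, 43.7 and 38.3 CPM in KO early telogen, with no overlap. In WT it was at 74.9, 35.2 and 80.5 CPM in anagen and at 46.9, 42.3 and 47.8 CPM in early telogen, where WT anagen replicate 2 lay below all telogen libraries. The KO log2 fold change was -1.55 ± 0.24 (edgeR adjusted p = 0.00153), and this call held whichever of the 6 libraries was left out. The WT log2 fold change was -0.38 ± 0.27 (edgeR adjusted p = 0.323). Without WT anagen replicate 2 it was -0.66 and passed (edgeR adjusted p = 0.0198).

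**Figure D2:**
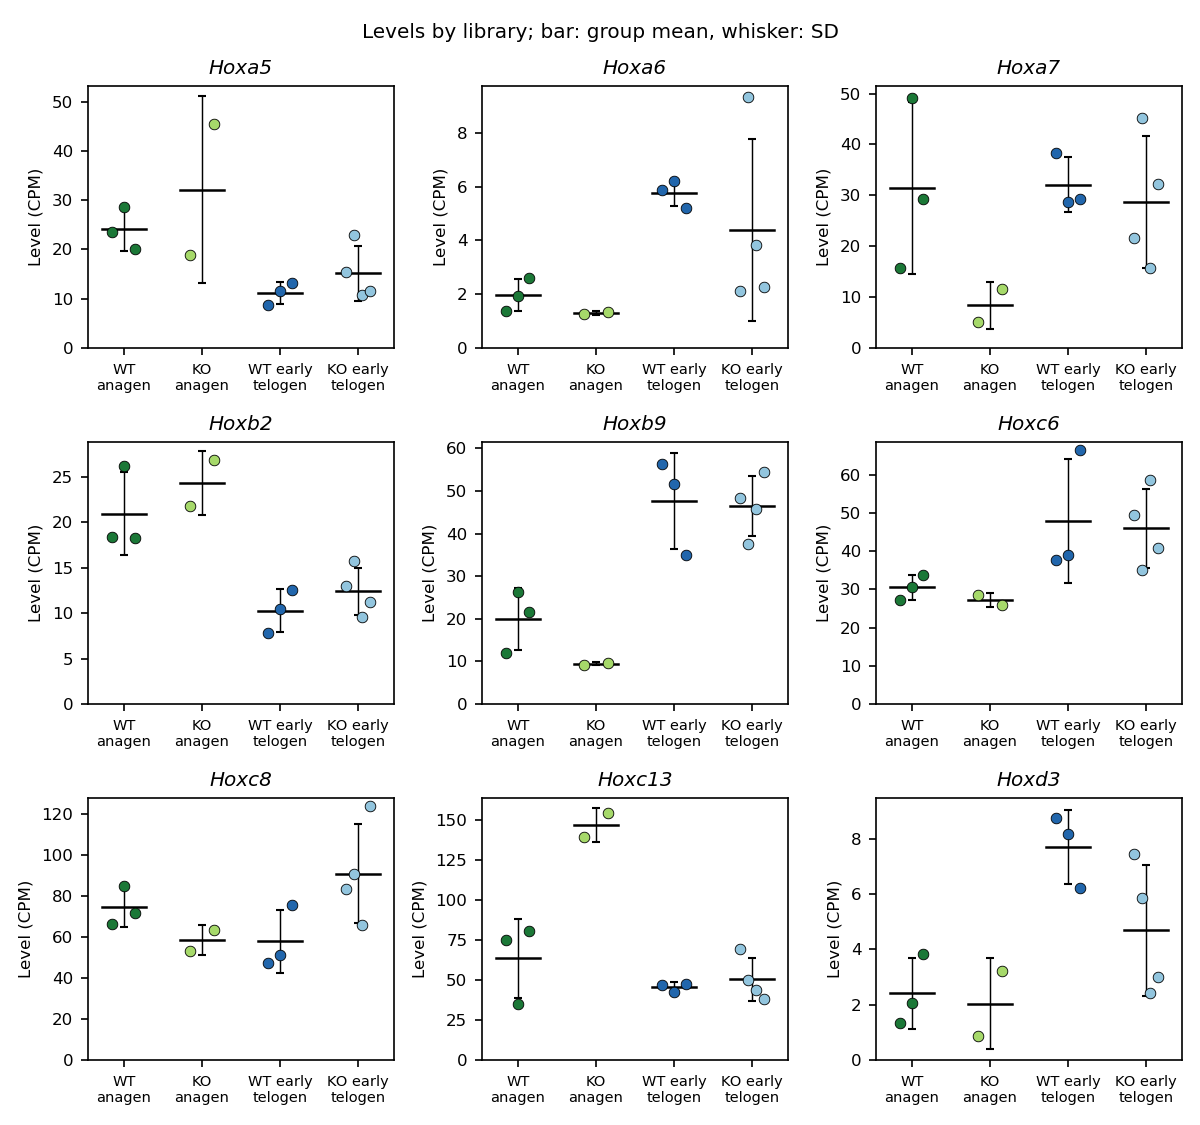
Level in CPM of 9 Hox cluster genes in each library (points) of the 4 groups, with the group mean (bar) and SD (whisker); each panel has its own axis from 0. Hoxb9 lies at 34.9 to 56.4 CPM in early telogen and at 9.16 to 26.4 CPM in anagen, and Hoxc13 is highest in the 2 KO anagen libraries.

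Hoxb2, an anterior gene that patterns the hindbrain (chromosome 11, 96350525 to 96354012, plus strand), fell in both genotypes. It was at 18.4, 26.2 and 18.3 CPM in WT anagen and at 7.86, 10.5 and 12.6 CPM in WT early telogen. In KO it was at 21.9 and 26.8 CPM in anagen and at 13, 15.7, 9.60 and 11.3 CPM in early telogen. All anagen libraries lay above all telogen libraries. The log2 fold change of Hoxb2 was -0.94 ± 0.27 in WT and -0.99 ± 0.26 in KO (edgeR adjusted p = 0.0255 and 0.0219). Each call was lost in 3 of 6 fits that left out a library, in WT without anagen replicate 2 or telogen replicate 1 or 3 and in KO without anagen replicate 1 or 2 or telogen replicate 5, with edgeR adjusted p values of up to 0.0881 and 0.196. The antisense gene Hoxb3os lies opposite 953 exon bases of Hoxb2 and 2250 of Hoxb3. It went from 2.16 to 0.354 CPM in WT (log2 fold change -2.44 ± 0.69), with early telogen libraries at 0.163 to 0.714 CPM. It entered the WT test only through its anagen level, so its call there adds no support. In KO, where Hoxb2 fell too, Hoxb3os went from 3.32 to 2.46 CPM and did not pass (log2 fold change -0.50 ± 0.58, edgeR adjusted p = 0.564). With the strand option unknown, reads of these genes cannot be told apart.

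Hoxc6 (chromosome 15, 102998257 to 103011881, plus strand) and Hoxd3 (chromosome 2, 74711927 to 74748442, plus strand) rose in WT. Hoxc6 was at 27.2, 30.8 and 33.8 CPM in WT anagen, 37.8, 39.1 and 66.5 CPM in WT early telogen, 28.4 and 25.8 CPM in KO anagen, and 49.4, 35.0, 58.6 and 40.9 CPM in KO early telogen. Its stages did not overlap in either genotype, and WT early telogen replicate 4 was the highest WT library. Its log2 fold change was 0.73 ± 0.24 in WT (edgeR adjusted p = 0.0426) and 0.79 ± 0.30 in KO (edgeR adjusted p = 0.0806). The WT call was lost in 5 of 6 fits that left out a library, with an edgeR adjusted p of up to 0.196, reached without WT early telogen replicate 4.

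Hoxd3, known in mouse for patterning of the neck vertebrae, was at 1.32, 2.07 and 3.83 CPM in WT anagen and 8.75, 8.16 and 6.20 CPM in WT early telogen. In KO it was at 0.874 and 3.20 CPM in anagen and 7.44, 5.86, 2.43 and 3.01 CPM in early telogen. The WT stages did not overlap and the KO stages did. Its log2 fold change was 1.78 ± 0.44 in WT, with an edgeR adjusted p of 0.0146 that stayed under 0.05 whichever library was left out, and 1.19 ± 0.66 in KO (edgeR adjusted p = 0.212). Of its 4191 exon bases, 2613 (62.3%) are shared on the same strand with Gm28230 and Hoxd4, so its counts are uncertain.

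The stage differences of WT and KO rest on separate libraries and were compared side by side. The sign was the same in both genotypes for 19 of 24 members (79.2%) and for 81.7% of 12378 genes in all. Across genes, which are not independent replicates, Pearson's r between the WT and KO log2 fold changes was 0.691 over the members and 0.774 over all genes. Groups did not overlap, with telogen higher, for 6 members in WT and 6 in KO (18.0% and 21.5% of all genes), and with telogen lower for 4 and 3 (29.9% and 23.5% of all genes). When split by paralog number, a split chosen after the values were seen, the median log2 fold change was -0.14 in WT and -0.58 in KO over the 12 tested genes of groups 1 to 5. Over the 11 tested genes of groups 6 to 9 it was 0.11 in WT and 0.79 in KO.

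**Figure D3:**
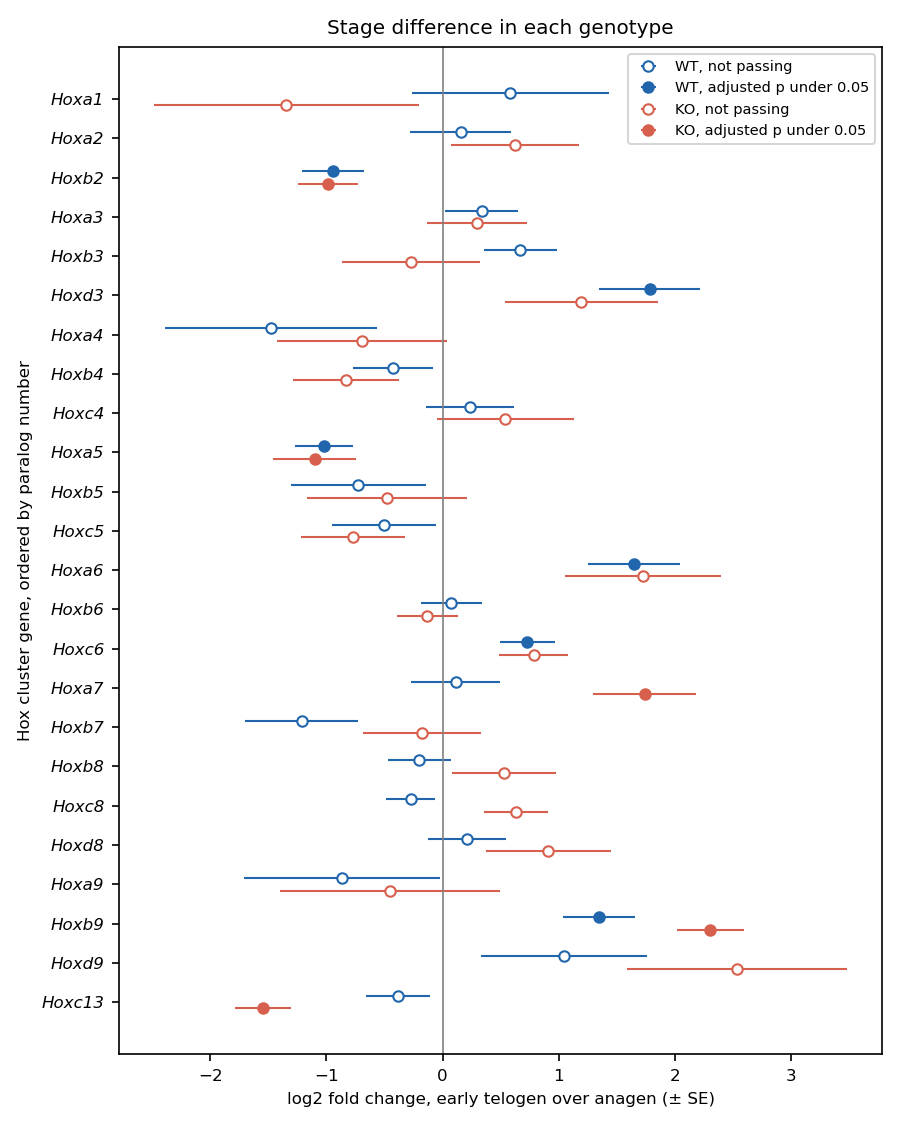
Log2 fold change of early telogen over anagen (x axis, ± SE) for each of the 24 Hox cluster genes tested, in WT and in KO, ordered by paralog number; filled points passed at an adjusted p under 0.05. Hoxb9 is right of 0 in both genotypes at 1.35 and 2.31, Hoxa5 and Hoxb2 are left of 0 in both, and Hoxc13 is at -1.55 in KO and -0.38 in WT.

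Besides Hoxc8, 6 members with a mean of at least 5 CPM in a group passed in no comparison. The anterior genes Hoxa3, Hoxb3 and Hoxb4 act in mouse in pharyngeal, hindbrain or blood development. Hoxa3 was at 6.42, 7.89 and 10.4 CPM in WT anagen, 4.37 and 9.30 CPM in KO anagen, 6.78, 10.5 and 11.9 CPM in WT early telogen, and 8.97, 12.9, 5.26 and 7.14 CPM in KO early telogen. Hoxb3 was at 4.81, 4.63 and 5.65 CPM, 5.68 and 8.41 CPM, 6.34, 6.40 and 9.95 CPM, and 2.03, 13.4, 3.84 and 4.88 CPM in the same groups. Hoxb4 was at 5.97, 9.71 and 12.9 CPM, 10.1 and 21.5 CPM, 5.45, 6.12 and 8.48 CPM, and 8.37, 17.3, 5.86 and 4.51 CPM. In each of these 3, KO early telogen replicate 2 was the highest of its group and anagen KO replicate 2 lay above replicate 1. Hoxb6 was at 16.5, 20.8 and 23.6 CPM in WT anagen, 19.4 and 29.8 CPM in KO anagen, 14.1, 20.1 and 25.9 CPM in WT early telogen, and 25.5, 26.7, 16.4 and 22.5 CPM in KO early telogen. Hoxb8, which in mouse is also known for excessive grooming in mutants, was at 10.4, 18.3 and 16.7 CPM, 8.13 and 19.6 CPM, 10.9, 11.8 and 14.5 CPM, and 20.5, 27.2, 8.69 and 26.3 CPM. Hoxd8 was at 5.67, 11.6 and 8.78 CPM, 3.37 and 7.03 CPM, 11.8, 9.73 and 6.69 CPM, and 15.1, 10.7, 3.44 and 10.9 CPM. For each of these 3 genes, every group overlapped every other.

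Between KO and WT, edgeR as run here with its low-count filter and no block made no call among the Hox genes at either stage. In anagen, 0 of 25 members tested passed in edgeR, and neither did any of the 14409 genes (0.0%), although 3 members and 1456 genes had an unadjusted p under 0.05. DESeq2 called 1 member, Hoxa7 (adjusted p = 0.0105), and 507 genes. Other settings of edgeR each called a member as lower in anagen, Hoxb9 when low genes were kept (edgeR adjusted p = 0.0433) and Hoxa7 with the titled day as a replicate block (edgeR adjusted p = 0.0133). In early telogen, 0 of 21 members passed against 0.956% of 12030 genes (0.499% higher and 0.457% lower), with 1 member and 1448 genes at an unadjusted p under 0.05, and DESeq2 called 0 members. The median log2 fold change of the members was -0.22 in anagen and -0.00 in early telogen, against 0.02 and 0.03 over all genes. Among melanocyte markers, 0 of 6 tested passed in anagen and 1 of 5 in early telogen, Dct, which was at 7.58 to 17.8 CPM in KO and 1.30 to 2.32 CPM in WT (log2 fold change 2.34, edgeR adjusted p = 0.0274).

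In anagen, the 3 members with an unadjusted p under 0.05 were Hoxc13, Hoxa7 and Hoxb9, whose library values stand above. Both KO libraries lay above all WT libraries for Hoxc13 and below all of them for Hoxa7 and Hoxb9. The log2 fold change was 1.12 ± 0.34 for Hoxc13, -2.01 ± 0.58 for Hoxa7 and -1.17 ± 0.36 for Hoxb9, with edgeR adjusted p values of 0.336, 0.328 and 0.337. Such separation was found, with KO higher, for 3 of 25 members (Hoxb3, Hoxc5, Hoxc13) against 18.5% of all genes, and, with KO lower, for 5 (Hoxa6, Hoxa7, Hoxa9, Hoxb9, Hoxc8) against 11.2%. The single female WT library, replicate 1, was nearer to the female KO libraries than the male ones were for Hoxa7 (15.8 CPM) and Hoxb9 (12 CPM). With sex as a covariate the log2 fold changes were 0.90 for Hoxc13, -1.0 for Hoxa7 and -0.42 for Hoxb9, and none passed in edgeR. Only WT replicate 1 shared the sex label of the KO libraries, so the KO values of this fit rest on 1 WT library. Whichever library was left out, none of the 3 passed in edgeR, with adjusted p values from 0.0976 to 0.677.

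The order of Hoxc13 and Hoxc8 by counts differed between libraries. Counts take no account of exon length, which was 2461 bases for Hoxc13 and 2832 for Hoxc8. Per kilobase of exon, Hoxc13 had the higher group mean only in KO anagen. The ratio of Hoxc13 to Hoxc8 counts was 1.12, 0.413 and 1.12 in WT anagen and 2.62 and 2.42 in KO anagen. It was 0.991, 0.826 and 0.631 in WT early telogen and 0.831, 0.552, 0.662 and 0.309 in KO early telogen. Hoxc13 thus took more counts than Hoxc8 in both KO anagen libraries and in 2 WT anagen libraries, and fewer in all 7 telogen libraries. Hoxc8, a gene of thoracic vertebrae and motor neurons in the mouse (chromosome 15, 102990607 to 102994111, plus strand), was at 66.7, 85.2 and 71.8 CPM in WT anagen and 53.3 and 63.7 CPM in KO anagen. In early telogen it was at 47.3, 51.2 and 75.7 CPM in WT and 83.4, 90.7, 66.0 and 124 CPM in KO. The KO libraries lay below WT in anagen, and in telogen the lowest KO library lay below the highest WT library. The log2 fold change was -0.44 ± 0.20 in anagen (edgeR adjusted p = 0.530) and 0.47 ± 0.24 in early telogen (edgeR adjusted p = 0.467).

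In early telogen, WT and KO libraries overlapped for all 21 members tested, whereas KO lay wholly above WT in 9.75% and wholly below in 3.37% of all genes. Hoxc13 differed by -0.02 ± 0.20 on the log2 scale, Hoxb9 by -0.20 ± 0.23 and Hoxa7 by -0.37 ± 0.27. The sign was not fixed for Hoxc13, which was at 0.034 without KO replicate 2 and WT replicate 3, nor for Hoxb9, which was at 0.049 in that fit. The member with the smallest p was Hoxd3, at -0.88 ± 0.40 in log2 units (edgeR adjusted p = 0.400). Hoxb7, at 1.34, 2.22 and 1.30 CPM in WT and 2.71, 6.93, 2.22 and 3.76 CPM in KO, had the largest positive value, 1.02 ± 0.54 (edgeR adjusted p = 0.495).

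**Figure D4:**
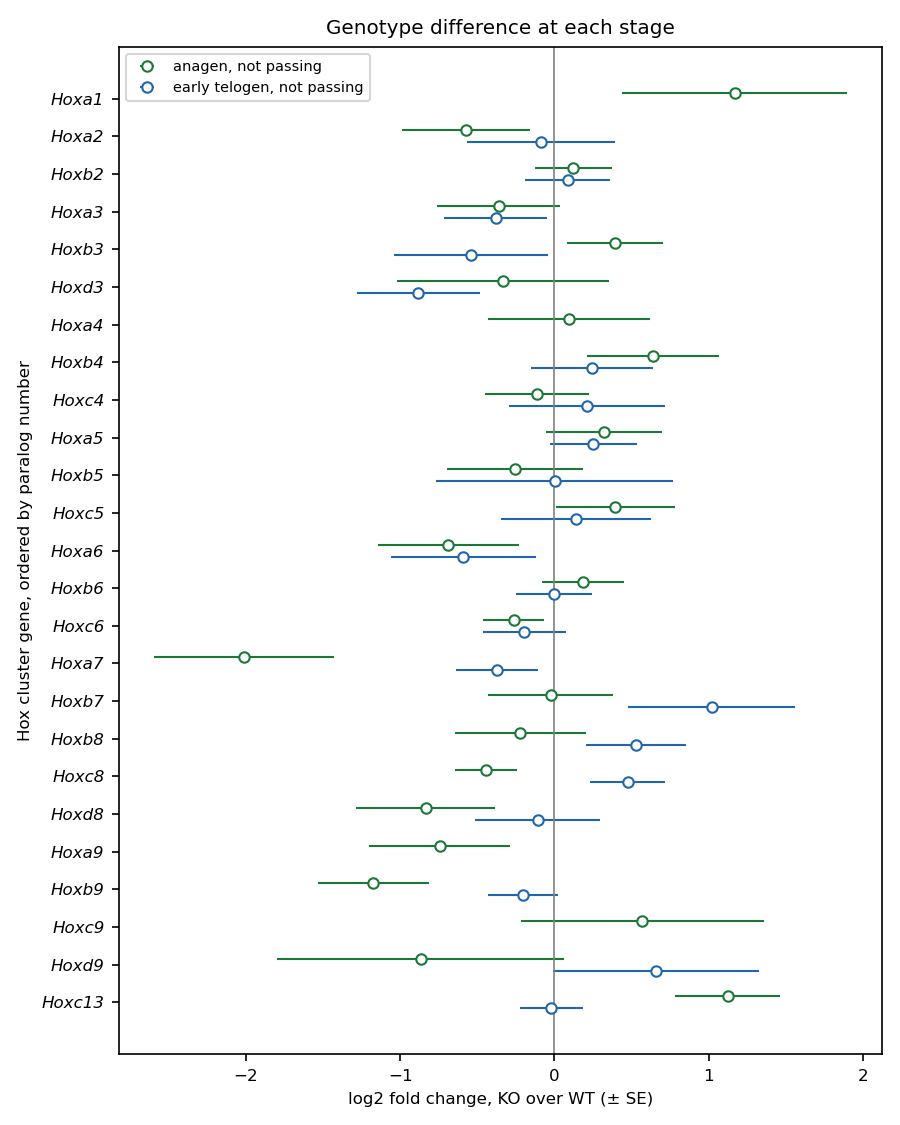
Log2 fold change of KO over WT (x axis, ± SE) for each Hox cluster gene tested, 25 in anagen and 21 in early telogen, ordered by paralog number; open points did not pass. In anagen Hoxa7 lies at -2.01, Hoxb9 at -1.17 and Hoxc13 at 1.12, and in early telogen these genes lie at -0.37, -0.20 and -0.02.

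The difference of the KO effect between the stages was tested directly, and 0 of 24 members passed in edgeR against 0.144% of 13193 genes (0.129% higher and 0.0152% lower), with 4 members at an unadjusted p under 0.05 and 0 called by DESeq2. For Hoxc13 the log2 fold change in early telogen minus that in anagen was -1.17 ± 0.38 (edgeR adjusted p = 0.433). The difference was 1.62 ± 0.63 for Hoxa7, 0.95 ± 0.43 for Hoxb9 and 0.89 ± 0.35 for Hoxc8, with edgeR adjusted p values of 0.624, 0.747 and 0.624. Without a filter on low counts Hoxa7 and Hoxc13 passed (edgeR adjusted p = 0.00378 and 0.0291).

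The order of the KO libraries was compared with that of all genes. KO early telogen replicate 2 was the highest of the 4 KO libraries for 12 of the 21 members tested and for 47.5% of all genes tested, and replicate 3 was the lowest for 13 of the 21 and for 36.0% of all genes. Replicate 2 held summed fibroblast markers at 5936 CPM, against 1054 to 2099 CPM in the other KO libraries of its stage, and summed epidermal differentiation markers at 5069 CPM against 898 to 1317 CPM. Immune markers summed to 229 CPM there, against 55.6 to 101 CPM. In anagen, KO replicate 2 lay above replicate 1 in 21 of 25 members tested and in 52% of all genes, and its summed immune markers were at 168 CPM against 39.1 CPM. The part of these marker genes in the Hox values was not tested.

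Pbx3, which encodes a TALE cofactor that binds DNA with HOX proteins, did not pass between KO and WT. Its log2 fold change was -0.76 ± 0.25 in anagen and -0.70 ± 0.21 in early telogen (edgeR adjusted p = 0.363 and 0.154). By stage, 1 of 6 TALE cofactors tested rose in WT and 1 of 5 in KO (13.6% and 10.2% of all genes). Of 10 trithorax-related regulators, 5 rose and 1 fell from anagen to early telogen in WT (13.6% and 15.9% of all genes). The histone methyltransferase genes Kmt2a and Kmt2b rose by 0.78 and 0.50, their complex subunit Wdr5 by 0.72, and the histone demethylase genes Kdm6a and Kdm6b by 1.27 and 0.81, while the subunit gene Dpy30 fell by 1.30 on the log2 scale, with edgeR adjusted p values from 0.00645 to 0.050. In KO, 0 of these 10 passed by stage, where 22.2% of all genes did, with Kmt2a at 0.72 ± 0.33 (edgeR adjusted p = 0.140), and 0 passed between KO and WT at either stage.

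In the retinoic acid pathway, Cyp26b1 encodes an enzyme that degrades retinoic acid. Of 5 listed genes tested between KO and WT in early telogen, Cyp26b1 alone passed, against 0.956% of all genes. It was at 68.5 to 153 CPM in WT and 42.1 to 64.8 CPM in KO, with no overlap, and fell by 1.40 ± 0.26 in log2 units (edgeR adjusted p = 0.0311). It rose from anagen to early telogen by 2.07 ± 0.40 in WT and by 1.72 ± 0.25 in KO (edgeR adjusted p = 0.00996 and 0.00101). Several genes of this list entered a test by stage only through their level at a single stage. The calls by stage are therefore not counted for the list. Among these genes is the retinoic acid receptor gene Rarb, tested only through its anagen level. In WT it went from 0.771 to 1.25 CPM in anagen to 0 in all 3 early telogen libraries. In KO it went from 3.17 to 3.34 CPM in anagen to 0 to 0.751 CPM in early telogen.

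Genes tied to HOXC13 in the hair shaft, from mouse or human work, had a lower summed level in every WT early telogen library than in any WT anagen library. Of 13 listed genes, 12 were in both tables, and their summed level was 65.6, 141 and 26.1 CPM in WT anagen, 24.3 and 44.6 CPM in KO anagen, 4.46, 4.08 and 6.20 CPM in WT early telogen and 1.44, 26.1, 5.56 and 7.51 CPM in KO early telogen. The hair keratin gene Krt35 was at 7.31 to 65.5 CPM in WT anagen, 13.2 to 22.8 CPM in KO anagen, 0 in all 3 WT early telogen libraries and 0 to 6.75 CPM in KO early telogen. Krt32, also listed, overlapped between the WT stages, at 3.67 to 7.03 CPM in anagen and 4.02 to 5.55 CPM in early telogen. It made up most of the WT early telogen sum, with a mean of 4.55 of 4.91 CPM. Most genes of this list that were tested by stage in WT were at or near 0 in early telogen and entered the test only through their anagen level, so their calls by stage are not counted. Between KO and WT in anagen, 0 of 12 passed, where 0.0% of all genes did. Of the 12, 11 had a negative log2 fold change, against 6936 of 14409 genes. The listed genes are not independent replicates, and their summed levels overlapped between KO and WT in anagen. In early telogen 0 of 1 passed, against 0.956% of all genes. The WT anagen library with the highest sum, replicate 2, was the one with the lowest Hoxc13.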

How the data were processed

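Poly(A)-selected RNA of sorted hair follicle stem cells was sequenced from directional libraries, per the labels' protocols. The authors deposited a table of unnormalized counts for each stage. The submitters' processing notes name TopHat2, mm10 and HTSeq. The versions, the gene annotation and the strand option are not given in the sources used here. The anagen table held 38803 genes and that of early telogen held 37958, of which 27 names had been turned into dates. In the latter, 3 broken lines were left out. Levels are CPM over gene entries, as mean ± SD.

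The quasi-likelihood test of edgeR 4.0.16 (R 4.3.3) was fitted robustly after TMM scaling and filterByExpr with a minimum count of 10 and a minimum total of 15. The Benjamini-Hochberg method adjusted p over all genes tested, with a threshold of 0.05. Genotype comparisons were fitted within a stage's table, stage comparisons within a genotype on the shared names, and the difference between stages on all 12 libraries. SE is the absolute log2 fold change over the square root of F. DESeq2 1.42.0, other size factors, no filter, sex, blocks and left-out libraries were alternatives. Tests were tried on simulated data first. Positions and exon lengths come from GENCODE M21 (GRCm38).

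The members, lists and comparisons were chosen with earlier results of these data known. Values per library were given for members that passed in any comparison, members with a mean of at least 5 CPM in a group, and Hoxc13 and Hoxc8. Of the further lists, not all members that passed were named, and those named were chosen after their values were seen. Protein sequences were not used here, and some results of the lists are not reported here.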

Additional observations from a re-analysis of the deposited data

How the results depend on the processing

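No Hox gene was called between KO and WT in anagen by edgeR, whereas Hoxa7 was called as lower by DESeq2 (1 member), Hoxb9 without a filter on low counts (1), and Hoxa7 with the titled day as a replicate block (1), which leaves a single residual degree of freedom and whose days are not stated to be shared litters. Over all genes, 0 calls in anagen became 507 (DESeq2), 306 (no filter), 1 (sex), 154 (all 12 libraries) and 253 (replicate block), and 0 to 95 with a library left out. In early telogen, 115 calls became 423 (DESeq2), 338 (no filter), 39 (all 12 libraries), 47 (without KO replicate 2 and WT replicate 3) and 11 with the replicate number as a replicate block, where KO and WT share only 2 numbers and no pairing could be checked. With a library left out there were 19 to 131 calls. Hoxc13, at -0.02, was at 0.20 in that block, at 0.034 without those 2 libraries and from -0.22 to 0.065 with a library left out. Hoxb9 was at 0.049 without those 2 libraries. By stage in WT, Hoxa7 ranged from -0.20 (without anagen replicate 1) to 0.62.

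By stage in WT, with a library left out, 2 to 4 members were higher, 1 to 2 lower, and 2312 to 3329 genes called (3748 with none left out), and 1 member was lower with sex as a covariate. In KO these ranges were 1 to 3, 1 to 4 and 1382 to 3640 (2835 with none left out), and 4 members were higher with DESeq2 and in the fit of all 12 libraries. For the difference between stages, 1 member was higher and 1 lower without a filter. Its 19 calls over all genes became 154 (DESeq2), 409 (no filter), 6 (sex) and 0 (without the 2 libraries), and 0 to 55 with a library left out. The causes were not tested. Of the refitted log2 fold changes of members, 392 kept their sign and side of the threshold, 8 turned sign, 10 passed anew and 21 no longer passed.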
